A study of Homo sapiens with 9 samples.

Results

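Histone genes were followed across RNA-seq libraries of MDA-MB-231, a widely used human cell line of triple-negative breast cancer, as 49 of the 63657 genes in the deposited table. They were chosen by name: 38 protein-coding genes of the replicative families (H1, H2A, H2B, H3 and H4 genes of the HIST clusters) and 11 genes of histone variants, with pseudogenes and CENPA left out. Another 34 symbols that meet the rule, all of them replicative (9 H2A, 8 H2B, 8 H3 and 9 H4 genes), matched no identifier in the table and were not analysed here. The lookup used current Ensembl identifiers, and whether the table holds these genes under older ones was not checked. Shares, sums and rankings of histone genes below therefore cover the matched genes only. The compared groups were 2 libraries of cells labelled as depleted of LOXL2 (shLOXL2, where sh is the usual prefix of a short hairpin RNA) and 2 libraries of control cells of the same line (shControl). The labels name no hairpin, way of delivery, clone or time of harvest, and their extraction protocol describes chromatin rather than RNA. LOXL2 is the lysyl oxidase-like enzyme to which oxidation of histone H3 at lysine 4 is attributed, so the series concerns a modification carried by the proteins that the H3 genes encode. The labels do not tell whether the 2 libraries of a group are separate cultures, and p-values here reflect the spread between these libraries alone, which may be technical.

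Replicative histones package new DNA. Their mRNAs accumulate in S phase, have no introns and end, in place of a poly(A) tail, in a stem-loop that the protein SLBP binds. Their genes lie in clusters in many near-identical copies, and H2A and H2B genes often sit head to head around a shared promoter. Variants such as H2A.Z, H3.3 and macroH2A are made outside S phase too, from single genes with introns and poly(A) tails, and replace replicative histones in chromatin at promoters, enhancers or silent regions. Selection of poly(A) RNA was not given in the sources used here, and it would weigh the 2 kinds of mRNA differently.

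Levels are in FPKM, which divides the fragments of a gene by its transcript length and by library size, so they are per length and can be set side by side between genes. No read counts are given, the depth of the libraries is therefore unknown, and a value of 0 may be a failed estimate: EEF1A1, which all cells use, is listed at 0 in all 4 libraries. The FPKM of all genes summed to between 1221570 and 1369370 per library. LOXL2 itself stood at 15.2 and 12.1 FPKM in shLOXL2 cells, against 85.5 and 84.5 FPKM in shControl cells, so 16.1% of the control level remained (log2 change -2.56 ± 0.12, SE, n = 2 per group, limma adjusted p = 0.0124). Vimentin (VIM), a marker of this mesenchymal-like line, ranged from 2011 to 2104 FPKM, while the hormone receptor genes ESR1 and PGR, absent from triple-negative cells, were at most 0.0822 FPKM. The other genes of that 9-gene list were not all stable: CD44 (log2 change -0.39) and EPCAM (-0.42) fell, the keratins KRT18 (0.36) and KRT8 (0.30) rose, and AXL and ERBB2 did not pass (limma adjusted p between 0.0172 and 0.0443 for the 4 called). Of 10 fibroblast markers 8 and of 8 haematopoietic markers 7 were below a mean of 1 FPKM. Of the remaining fibroblast markers, COL1A1 rose to 8.02 and 7.43 FPKM in shLOXL2 cells, against 4.12 and 4.73 FPKM in shControl cells (limma adjusted p = 0.0287), and its part in the histone values was not tested.

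The genes that carry the findings below include 5 H2A-H2B pairs that face away from each other. The DNA between the 2 transcription starts of each pair is shown here because both genes of a pair use it as promoter. The sequences are from RefSeq (build GRCh38.p14), on the + strand from 5′ to 3′, with the first-named gene to the left on the - strand and the second to the right on the + strand. Capitals mark CCAAT (or its reverse complement ATTGG), the box bound by the factor NF-Y, TATAAA (or TTTATA), the TATA box, and ATTTGCAT (or ATGCAAAT), the octamer recognised by OCT1. The regions are chr6:25726563-25726776, chr6:27132796-27133042, chr6:27807930-27808172, chr6:26123927-26124171 and chr1:149886683-149886917, in the order of the lines.
H2AC1-H2BC1: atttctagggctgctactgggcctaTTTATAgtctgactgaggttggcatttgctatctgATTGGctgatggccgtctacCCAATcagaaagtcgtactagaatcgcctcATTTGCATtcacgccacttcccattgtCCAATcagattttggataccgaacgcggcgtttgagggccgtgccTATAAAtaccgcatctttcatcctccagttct
H2BC11-H2AC11: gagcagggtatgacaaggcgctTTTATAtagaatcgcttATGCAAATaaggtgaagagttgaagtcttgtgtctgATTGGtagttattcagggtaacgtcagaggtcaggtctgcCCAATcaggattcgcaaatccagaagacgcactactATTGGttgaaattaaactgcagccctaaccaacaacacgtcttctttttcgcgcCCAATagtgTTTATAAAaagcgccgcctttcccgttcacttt
H2BC13-H2AC13: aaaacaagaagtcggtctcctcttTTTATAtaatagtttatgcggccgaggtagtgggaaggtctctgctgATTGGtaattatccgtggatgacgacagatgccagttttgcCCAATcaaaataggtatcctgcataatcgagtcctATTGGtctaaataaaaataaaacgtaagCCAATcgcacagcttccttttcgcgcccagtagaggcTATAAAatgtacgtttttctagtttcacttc
H2BC4-H2AC6: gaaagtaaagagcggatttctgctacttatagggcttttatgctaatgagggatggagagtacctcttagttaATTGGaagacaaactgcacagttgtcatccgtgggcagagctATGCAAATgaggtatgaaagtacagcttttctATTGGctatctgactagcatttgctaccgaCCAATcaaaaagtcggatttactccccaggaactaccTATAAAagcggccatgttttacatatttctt
H2BC21-H2AC20: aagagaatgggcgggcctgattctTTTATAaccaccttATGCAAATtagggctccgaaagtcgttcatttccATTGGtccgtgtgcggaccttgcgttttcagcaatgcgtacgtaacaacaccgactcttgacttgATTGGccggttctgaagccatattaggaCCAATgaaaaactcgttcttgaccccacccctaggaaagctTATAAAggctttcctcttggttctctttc
The octamer occurred once in each of 4 of these regions and not in that of H2BC13 and H2AC13, while CCAAT occurred 3 or 4 times in each.

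Of the 38 replicative genes, 23 reached a mean of 1 FPKM over the 4 libraries and were tested, and of the 11 variant genes 8 were tested. Among the 23 replicative genes tested, 16 fell in shLOXL2 cells, 0 rose and 7 did not pass (limma, adjusted p below 0.05). Over all 16987 tested genes 8.54% fell and 8.35% rose, 16.9% in all. The median log2 change of the replicative genes was -0.35, against -0.0041 over all tested genes. Among the 8 variant genes tested 0 passed in either direction at a median of -0.043, with 5 at an unadjusted p below 0.05, as were 35.9% of all tested genes. In 20 of the 23 replicative genes both shLOXL2 libraries lay below both shControl libraries, an arrangement that 32.8% of all tested genes showed. Among the 8 variant genes 4 had that arrangement and 1 the opposite one, which 31.8% of all tested genes showed. With quantile normalization, where 8.72% of all tested genes fell and 8.41% rose, 19 replicative and 2 variant genes fell and 0 histone genes rose. In bulk RNA, fewer cells in S phase and less histone mRNA per cell cannot be told apart.

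When any single library was left out, which leaves 1 residual degree of freedom rather than 2 and assumes that the lone sample varies like the other group, 0 replicative genes passed in limma. Unadjusted p was below 0.05 for 17 of the 23 without either shLOXL2 library and for 16 without either shControl library. Of all tested genes, 30.4% and 30.2% were below it without shLOXL2 replicate 1 or 2, and 23.5% and 23.1% without shControl replicate 1 or 2. The median log2 change of the replicative genes stayed between -0.38 and -0.31. Without a filter on low values 8 of 35 replicative genes fell, while of all 36224 genes in that fit 542 fell and 601 rose. The 8 were H2AC1, H2AC11, H2AC13, H2BC1, H2BC13, H3C12, H3C13 and H4C3. With the replicate number as a block 0 of all tested genes passed, the replicative ones included. In that fit 18 of the 23 had an unadjusted p below 0.05 in limma, against 32.5% of all tested genes. With a variance prior without an intensity trend 11 replicative genes fell, against 1022 of all 16987 tested genes. There H1-4, H2BC4, H2BC18, H2BC21 and H4C16 missed the threshold (limma adjusted p between 0.0531 and 0.0785).

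**Figure D1:**
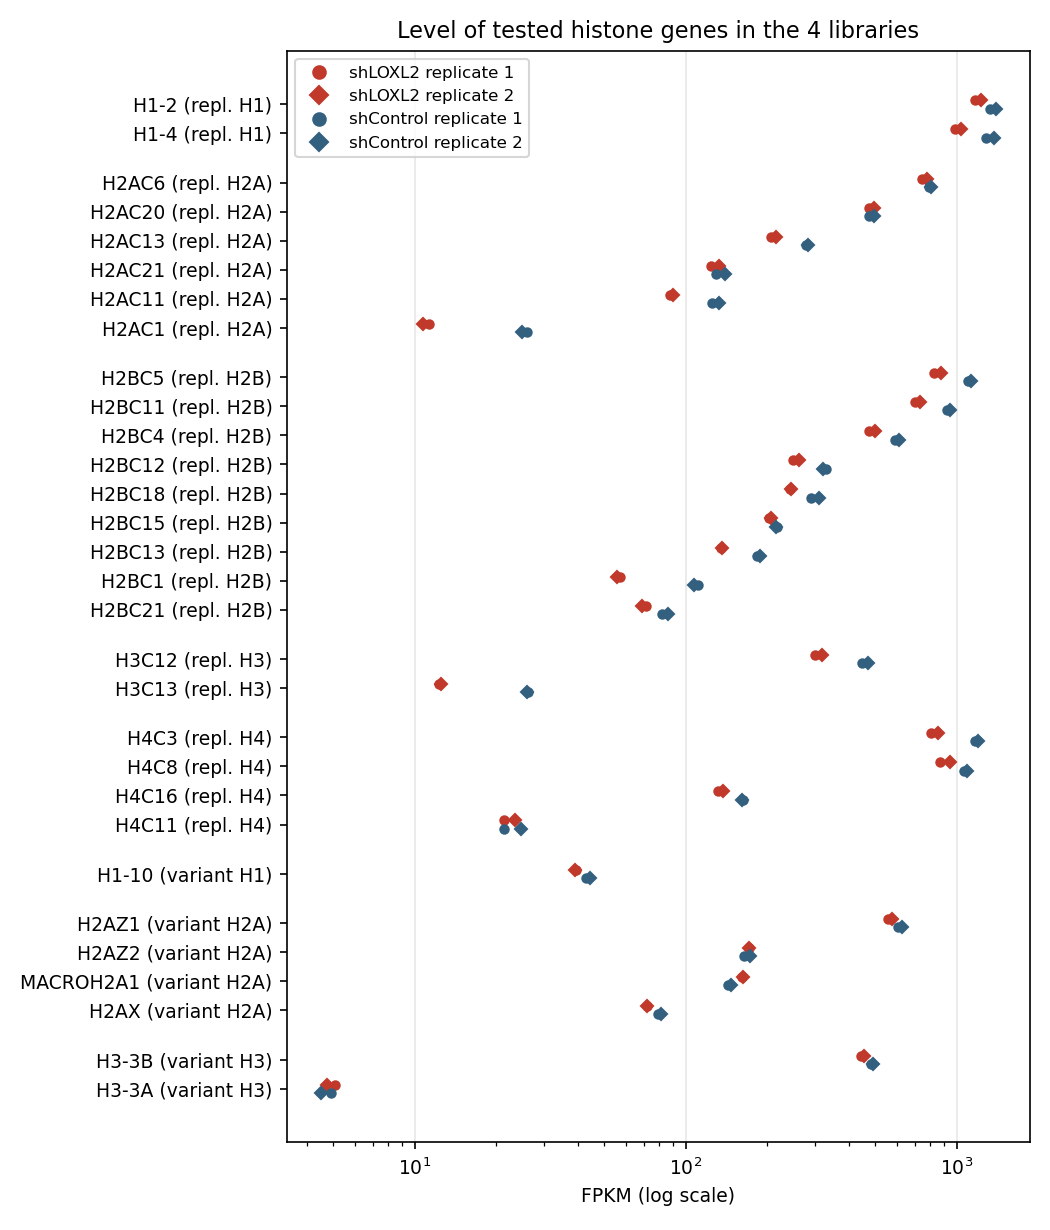
FPKM of 30 of the 31 tested histone genes on a log scale, 1 row per gene grouped by kind and histone; red symbols are the 2 shLOXL2 libraries and blue symbols the 2 shControl libraries. Replicative genes span from H2AC1 at 10.7 FPKM to H1-2 at 1397 FPKM, and in 20 of 23 both red symbols lie left of both blue ones.

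Linker histone H1 binds DNA where it enters and leaves the nucleosome. H1-2 and H1-4 made up 52.2% and 47.7% of the summed FPKM of the 6 cluster H1 genes. H1-4 stood at 990.5 and 1035 FPKM in shLOXL2 cells, against 1280.1 and 1374 FPKM in shControl cells, and fell (log2 change -0.39 ± 0.054, SE, n = 2 per group, limma adjusted p = 0.0322). H1-2, the most abundant member of all, stood at 1167 and 1227 FPKM in shLOXL2 cells, against 1326 and 1397 FPKM in shControl cells. Its groups did not overlap, but it missed the threshold (log2 change -0.19, limma adjusted p = 0.0947, 95% interval -0.33 to -0.038). It passed with quantile normalization (log2 change -0.24, limma adjusted p = 0.0311) and with protein-coding genes alone (limma adjusted p = 0.0213). H1-1, H1-3 and H1-5, which are also replicative H1 genes, were at most 0.0782 FPKM in any library. H1-6, the testis H1, lay below the filter with 0.530 and 0.381 FPKM in shLOXL2 cells, against 1.34 and 0.992 FPKM in shControl cells.

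H2A pairs with H2B in the dimers that flank the H3-H4 core of the nucleosome. Of the 6 replicative H2A genes tested 3 fell, against 8.54% of all tested genes. H2AC1, a gene known for a testis form of H2A, had 11.3 and 10.7 FPKM in shLOXL2 cells, against 26.0 and 24.8 FPKM in shControl cells. At a log2 change of -1.14 ± 0.050 (SE, n = 2 per group, limma adjusted p = 0.0124) it had the most negative change of the tested histone genes. H2AC11 had 87.8 and 89.7 FPKM in shLOXL2 cells, against 125 and 133 FPKM in shControl cells (log2 change -0.53, limma adjusted p = 0.0171). H2AC13 had 206 and 216 FPKM in shLOXL2 cells, against 279 and 283 FPKM in shControl cells (log2 change -0.41, limma adjusted p = 0.0191). In all 3 the groups lay apart by more than the spread within either.

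The 2 most abundant of the matched replicative H2A genes did not pass. H2AC6 gave 44.0% of the summed FPKM of the matched replicative H2A genes, with 744 and 780.1 FPKM in shLOXL2 cells, against 790.4 and 801 FPKM in shControl cells (log2 change -0.063, 95% interval -0.18 to 0.054). H2AC20 gave 27.4%, with 475 and 495 FPKM in shLOXL2 cells, against 476 and 494 FPKM in shControl cells (log2 change 0.0023, 95% interval -0.12 to 0.12). The groups of H2AC20 overlapped almost wholly, and its sign changed with quantile normalization (-0.069). H2AC21, also on chromosome 1, had 125 and 133 FPKM in shLOXL2 cells, against 129.6 and 139 FPKM in shControl cells (log2 change -0.064, 95% interval -0.24 to 0.11). H2AC6 passed with quantile normalization (log2 change -0.17, limma adjusted p = 0.0313). The other H2A members, H2AC7 and H2AC25, were at most 0.0915 FPKM.

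H2B had the most tested genes of the replicative classes and the highest count of falls: 8 of the 9 fell, against 8.54% of all tested genes. In all 9 both shLOXL2 libraries lay below both shControl libraries, as in 32.8% of all tested genes. H2BC1, which encodes the testis form TH2B, had 57.2 and 55.6 FPKM in shLOXL2 cells, against 111 and 107 FPKM in shControl cells (log2 change -0.94 ± 0.037, SE, n = 2 per group, limma adjusted p = 0.0116). H2BC13 had 134 and 136 FPKM in shLOXL2 cells, against 184 and 189 FPKM in shControl cells (log2 change -0.46, limma adjusted p = 0.0135). The 2 most abundant of the matched H2B genes came next in size of change. H2BC5 had 826 and 877 FPKM in shLOXL2 cells, against 1102 and 1132 FPKM in shControl cells (log2 change -0.39, limma adjusted p = 0.0259). H2BC11 had 704 and 733 FPKM in shLOXL2 cells, against 921 and 947 FPKM in shControl cells (log2 change -0.38, limma adjusted p = 0.0220).

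The 4 remaining H2B genes that fell had log2 changes of -0.35 (H2BC12), -0.31 (H2BC4), -0.30 (H2BC18) and -0.25 (H2BC21). H2BC21 was the weakest of them, at 71.4 and 69.1 FPKM in shLOXL2 cells, against 81.5 and 86.4 FPKM in shControl cells (limma adjusted p = 0.0484), and missed the threshold with upper quartile scaling (limma adjusted p = 0.0543). H2BC15 did not pass, with 203 and 206 FPKM in shLOXL2 cells, against 217 and 216 FPKM in shControl cells (log2 change -0.081, limma adjusted p = 0.155). H2BC12L and H2BC26 were below the filter.

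Among the 7 matched replicative H3 genes 2 reached the filter, while 8 further H3 symbols were unmatched. Both tested genes fell, against 8.54% of all tested genes. The H3C genes encode H3.1 and H3.2, the forms of H3 laid down behind the replication fork. H3C12 carried 95.1% of the summed FPKM of the 7 matched genes. It had 299.7 and 319.8 FPKM in shLOXL2 cells, against 449 and 472 FPKM in shControl cells (log2 change -0.57 ± 0.052, SE, n = 2 per group, limma adjusted p = 0.0188). H3C13, on chromosome 1, stood at 47.4% of its control mean, with 12.3 and 12.5 FPKM in shLOXL2 cells, against 26.3 and 26.1 FPKM in shControl cells (log2 change -1.02 ± 0.035, SE, n = 2 per group, limma adjusted p = 0.0115). The other H3 members were H3C4, listed at 0 in all libraries, and H3C14, H3C15, the testis gene H3-4 and H3-7, at most 0.944 FPKM.

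Histone H4 pairs with H3 in the core of the nucleosome, and of its 4 tested genes 2 fell, against 8.54% of all tested genes. H4C3 had 805 and 851 FPKM in shLOXL2 cells, against 1167 and 1203 FPKM in shControl cells, and fell (log2 change -0.52 ± 0.046, SE, n = 2 per group, limma adjusted p = 0.0183). H4C16, on chromosome 12, had 132 and 137 FPKM in shLOXL2 cells, against 163 and 162 FPKM in shControl cells and fell as well (log2 change -0.27, limma adjusted p = 0.0277). H4C8, about as abundant as H4C3, had 869 and 942 FPKM in shLOXL2 cells, against 1069 and 1089.7 FPKM in shControl cells. Its groups were apart, but it missed the threshold (log2 change -0.25, limma adjusted p = 0.0632), and it passed at a filter of 5 FPKM (limma adjusted p = 0.0465), with quantile normalization (limma adjusted p = 0.0295) and with protein-coding genes alone (limma adjusted p = 0.0086). H4C11 overlapped between groups, with 21.3 and 23.5 FPKM in shLOXL2 cells, against 21.4 and 24.7 FPKM in shControl cells. H4C14 and H4C15 are listed at 0.

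**Figure D2:**
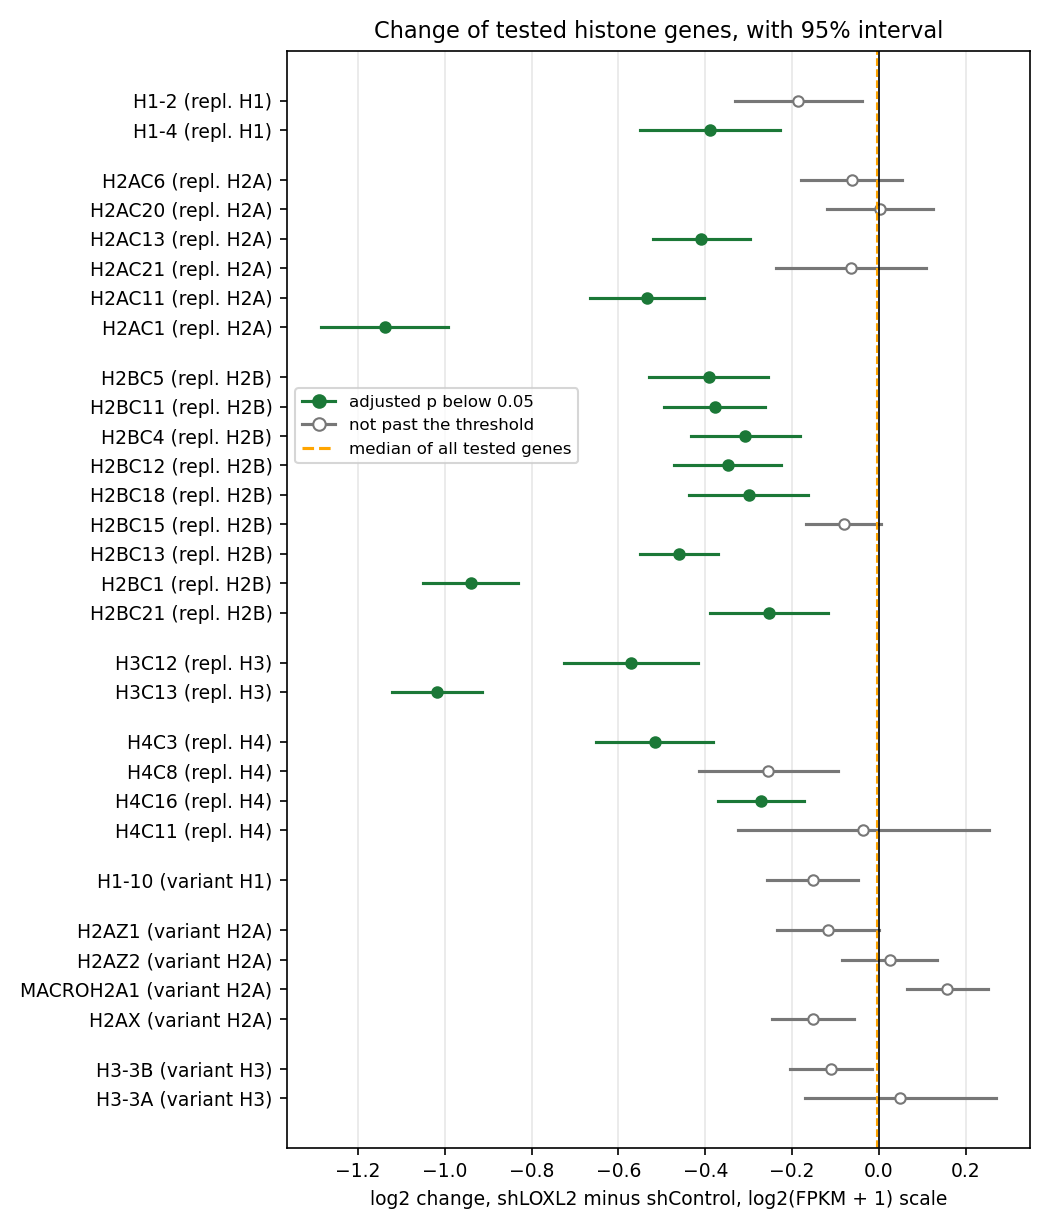
Log2 change (shLOXL2 minus shControl, on the log2(FPKM + 1) scale) of 30 of the 31 tested histone genes, each with its 95% interval from limma; filled green symbols passed the threshold. The changes run from -1.14 for H2AC1 to 0.16 for MACROH2A1, and the variant genes shown all lie within 0.16 of 0.

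The gene copies are so alike that reads can be shared between them, and how the authors' counting split such reads was not given in the sources used here, so the values of single replicative genes are uncertain. In RefSeq 9 of the 31 tested genes also overlap another gene (H2AC1, H2BC1, H2BC5, H2BC12, H2BC18, H1-10, H2AX, MACROH2A1 and H3-3A), and whether strand was used in counting was not given in the sources used here. Sums over a class depend less on how reads were split among its matched genes. They leave out the 34 unmatched symbols, and reads shared with those or with overlapping genes remain a limit. The H3 sum is 95.1% H3C12, so it is close to the value of a single gene. Replicative H3 genes summed to 313 and 332 FPKM in shLOXL2 cells, against 476 and 498 FPKM in shControl cells, which is 66.3% of the control sum. The H4 sum was 77.2% of control, the H2B sum 78.0%, the H1 sum 82.2% and the H2A sum 91.2%. Over all 38 replicative genes the sum was 8913 and 9357 FPKM in shLOXL2 cells, against 11161 and 11548 FPKM in shControl cells (80.5% of control). That of all genes in the table was 109% of control, and 105% without mitochondrial genes. The sums of the shLOXL2 libraries lay below those of both shControl libraries in each of the 5 replicative classes.

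**Figure D3:**
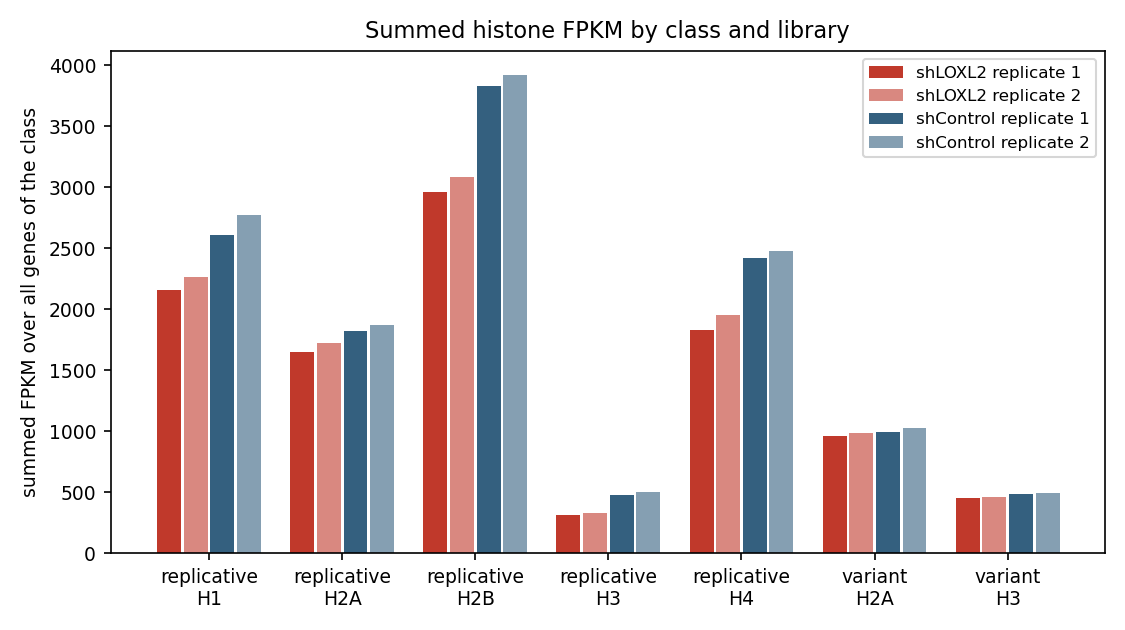
Summed FPKM over all genes of 7 histone classes, 1 bar per library from 0, red for shLOXL2 and blue for shControl. Replicative H2B has the highest bars (2964.5 and 3084 FPKM in shLOXL2 cells, against 3831 and 3924 FPKM in shControl cells), and the bars of variant H2A and H3 differ less between groups, at 96.4% and 92.7% of control.

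The 11 variant genes summed to 95.3% of control, and the difference between variants and replicative genes was not tested. H2AZ1 and H2AZ2 encode H2A.Z, the variant placed at promoters by the SRCAP and TIP60 complexes. H2AZ1 had 558 and 579.9 FPKM in shLOXL2 cells, against 607 and 627 FPKM in shControl cells (log2 change -0.12, limma adjusted p = 0.138, 95% interval -0.23 to -0.00041). H2AZ2 had 172 and 171 FPKM in shLOXL2 cells, against 164 and 172 FPKM in shControl cells, and its groups overlapped. H2AX, whose phosphorylation marks DNA breaks, had 72.2 and 71.8 FPKM in shLOXL2 cells, against 79.0 and 81.1 FPKM in shControl cells (log2 change -0.15, limma adjusted p = 0.0617), and it passed with quantile normalization (limma adjusted p = 0.0474). H2AX overlaps DPAGT1 in RefSeq, a glycosylation gene that fell to 26.8 and 27.6 FPKM in shLOXL2 cells, against 33.5 and 35.3 FPKM in shControl cells (limma adjusted p = 0.0303), and reads of overlapping genes may not be separable.

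MACROH2A1, which carries a macro domain and is found in silent chromatin, had the most positive change of the tested histone genes. It stood at 161 and 163 FPKM in shLOXL2 cells, against 143 and 147 FPKM in shControl cells, without overlap (log2 change 0.16 ± 0.032, SE, n = 2 per group, limma adjusted p = 0.0580, 95% interval 0.064 to 0.25). Its relative MACROH2A2 was at most 0.0828 FPKM. H3-3B, one of the pair of genes for H3.3, had 445 and 456 FPKM in shLOXL2 cells, against 482 and 490.1 FPKM in shControl cells (log2 change -0.11, limma adjusted p = 0.108). H3-3A, the other, had 5.07 and 4.73 FPKM in shLOXL2 cells, against 4.90 and 4.50 FPKM in shControl cells, and since it has many processed pseudogenes its level is uncertain. With quantile normalization H3-3B passed (log2 change -0.19, limma adjusted p = 0.0397).

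H1-10, an H1 gene outside the clusters, had 39.4 and 39.1 FPKM in shLOXL2 cells, against 43.0 and 44.5 FPKM in shControl cells (log2 change -0.15, limma adjusted p = 0.0741). H1-7 and H1-8, which are germ cell genes, were at most 0.0141 FPKM. Among protein-coding genes fitted alone, where 19.4% of all genes fell and 19% rose, H2AX and H1-10 fell (limma adjusted p = 0.0332 and 0.0471), MACROH2A1 rose (limma adjusted p = 0.0229), and 18 replicative genes fell.

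Ratios formed within a library do not depend on how libraries are scaled against each other. The ratio of matched replicative H3 to H3.3 (H3-3A and H3-3B) was 0.696 and 0.722 in shLOXL2 cells, against 0.978 and 1.01 in shControl cells. Its numerator is mostly H3C12, at 95.1% of the matched H3 sum, and its denominator mostly H3-3B, since H3-3A was at most 5.07 FPKM. The 8 unmatched H3 symbols, and the 9 unmatched H2A symbols in the next ratio, are left out. For H2A the ratio of replicative genes to variants was 1.71 and 1.75 in shLOXL2 cells, against 1.84 and 1.82 in shControl cells. In both ratios the shLOXL2 libraries were below the shControl libraries, with the H3 ratio at 71.5% of control and the H2A ratio at 94.6%.

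Within the divergent pairs, whose shared promoters are printed above, both genes fell in 3 of the 5 pairs. H2AC1 and H2BC1, the testis pair, changed by -1.14 and -0.94 on the log2 scale. H2AC11 and H2BC11 changed by -0.53 and -0.38, and H2AC13 and H2BC13 by -0.41 and -0.46. In the other 2 pairs the H2B gene fell and the H2A gene did not pass, namely H2BC4 (-0.31) beside H2AC6 (-0.063) and H2BC21 (-0.25) beside H2AC20 (0.0023). The ratio of H2AC6 to H2BC4 was accordingly 1.56 in both shLOXL2 libraries, against 1.33 and 1.30 in shControl cells. That of H2AC20 to H2BC21 was 6.66 and 7.17 in shLOXL2 cells, against 5.83 and 5.71 in shControl cells. The H2AC1 and H2BC1 genes lie within the RefSeq span of SLC17A1, a phosphate transporter gene that is listed at 0 in all 4 libraries.

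**Figure D4:**
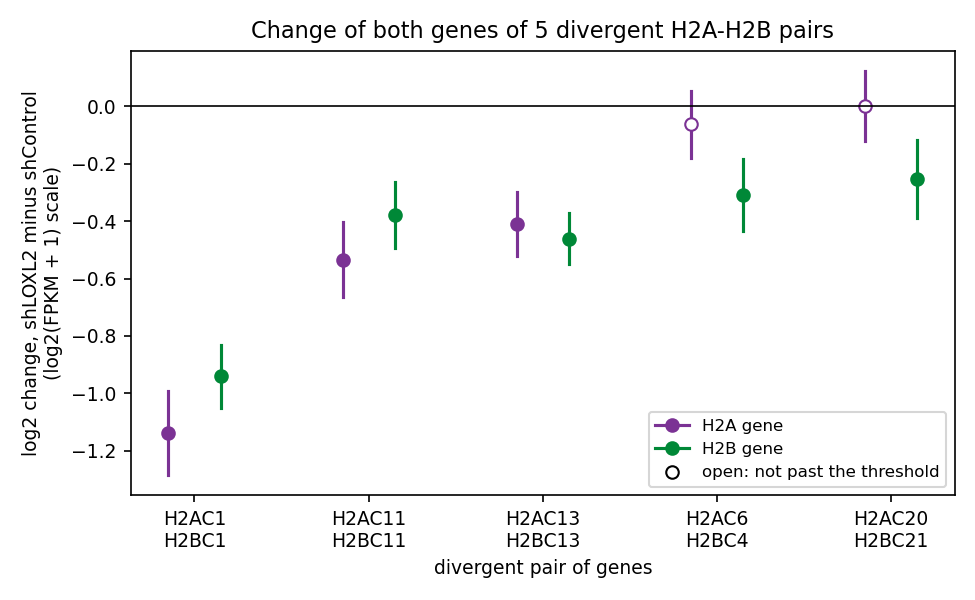
Log2 change (shLOXL2 minus shControl, log2(FPKM + 1) scale) of the H2A gene (purple, left) and the H2B gene (green, right) of each of 5 divergent pairs, with 95% intervals. Open symbols did not pass the threshold: H2AC6 and H2AC20 lie near 0 beside partners at -0.31 and -0.25.

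Promoters of other members are shown for comparison with the paired ones, as the 120 bases before the start, from RefSeq (GRCh38.p14) and in the gene's own direction. H3C13 fell, H4C16 fell and H4C11 did not pass, while H1-4 fell and H1-2 did not pass. Capitals mark the same motifs and, in the H1 genes, also AAACACA, the H1 box. They lie at chr1:149813694-149813813 (- strand), chr12:14771132-14771251 (- strand), chr6:27823972-27824091 (+ strand), chr6:26156209-26156328 (+ strand) and chr6:26056471-26056590 (- strand), in the order of the lines.
H3C13: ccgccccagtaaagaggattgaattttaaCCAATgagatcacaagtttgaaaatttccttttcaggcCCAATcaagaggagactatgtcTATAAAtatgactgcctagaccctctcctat
H4C16: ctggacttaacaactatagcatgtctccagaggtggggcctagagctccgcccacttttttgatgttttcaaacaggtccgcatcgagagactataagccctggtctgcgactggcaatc
H4C11: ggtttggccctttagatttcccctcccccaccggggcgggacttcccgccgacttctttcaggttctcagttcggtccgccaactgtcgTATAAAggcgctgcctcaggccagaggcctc
H1-4: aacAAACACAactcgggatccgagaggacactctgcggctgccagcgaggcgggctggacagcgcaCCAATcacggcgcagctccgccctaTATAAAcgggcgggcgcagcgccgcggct
H1-2: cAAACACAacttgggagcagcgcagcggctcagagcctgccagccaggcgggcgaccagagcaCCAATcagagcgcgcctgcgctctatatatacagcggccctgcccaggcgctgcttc
Both H1 promoters hold the H1 box and 1 CCAAT, and neither H4 promoter holds CCAAT.

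Windows from 250 bases before to 50 after the start were searched on both strands for these motifs and for TTTCCCGC and TTTGGCGC, 2 forms of the E2F site. A window was found for 21 of the 23 tested replicative genes, the first listed where a gene had several. None was found for H3C12 and H4C3, the most abundant matched H3 and H4 genes, which both fell. TATAAA was in 17 of the 21, against 12% of 27305 promoters of the table, and CCAAT in 18, against 35.7%. A motif counted at any position in the window, so H4C16 counts for TATAAA though its printed bases hold none. Both windows of a printed pair cover the DNA between the starts, so a motif there counts for both genes and raises these shares. ATTTGCAT was in 11, against 1.8%, comprising 5 of 6 H2A and 6 of 9 H2B windows. AAACACA was in 3, against 5.76%, and both H1 windows were among them. TTTCCCGC (1.66% of promoters) and TTTGGCGC (0.659%) were in 0 of the 21. The octamer was in 8 of 14 windows of genes that fell and in 3 of 7 of genes that did not pass, a difference that was not tested. The windows are not independent, since those of a pair share DNA. The octamers of H2BC4-H2AC6 and H2BC21-H2AC20 count both for the H2B gene that fell and for the H2A gene that did not pass.

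Among genes that transcribe and process histone mRNA, of 22 tested, 6 fell and 0 rose, with a median log2 change of -0.13. Of all tested genes 8.54% fell and 8.35% rose. In the list 16 changes were negative and 6 positive. Both shLOXL2 libraries lay below both shControl libraries in 13 genes and above in 4, against 32.8% and 31.8% of all tested genes. SLBP, the stem-loop binding protein, had 64.9 and 70.9 FPKM in shLOXL2 cells, against 83.6 and 86.4 FPKM in shControl cells (log2 change -0.32, limma adjusted p = 0.0489). ERI1, the exonuclease that trims the histone 3′ end (log2 change -0.35), LSM10 of the U7 particle (-0.36), ZNF473 (-0.34) and CASP8AP2 (-0.28), both processing factors of that 3′ end, also fell. CCNE1, the cyclin that activates CDK2 at the start of S phase, fell too, at -0.48. NPAT, the coactivator of histone gene clusters, overlapped between groups, with 7.11 and 6.18 FPKM in shLOXL2 cells, against 6.69 and 6.84 FPKM in shControl cells. SLBP missed the threshold with a pseudocount of 5 FPKM (limma adjusted p = 0.0508) and with upper quartile scaling (0.0502). With quantile normalization 4 genes of the list fell and 1 rose.

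Of 34 genes of histone chaperones and deposition 12 fell and 0 rose, against 8.54% and 8.35% of all tested genes, with a median log2 change of -0.092. Changes were negative in 22 of them and positive in 12. Both shLOXL2 libraries lay below both shControl libraries in 16 and above in 9, against 32.8% and 31.8% of all tested genes. With quantile normalization 11 fell and 2 rose. RBBP4, a histone-binding subunit of the CAF-1 complex and of several repressor complexes, had 19.4 and 17.4 FPKM in shLOXL2 cells, against 45.5 and 41.3 FPKM in shControl cells (log2 change -1.19 ± 0.084, SE, n = 2 per group, limma adjusted p = 0.0140). CHAF1B, another CAF-1 subunit, had 6.08 and 6.77 FPKM in shLOXL2 cells, against 10.8 and 11.3 FPKM in shControl cells (log2 change -0.70, limma adjusted p = 0.0207). CHAF1A, the large CAF-1 subunit, overlapped between groups, with 20.0 and 18.2 FPKM in shLOXL2 cells, against 17.7 and 23.0 FPKM in shControl cells. NASP, a chaperone that keeps a reserve of soluble H3 and H4, fell (log2 change -0.27, limma adjusted p = 0.0310), as did SET (-0.43), MCM2 (-0.38) and the H3-binding cochaperone DNAJC9 (-0.34). ASF1B, the H3-H4 chaperone of dividing cells, had 77.1 and 74.1 FPKM in shLOXL2 cells, against 66.9 and 66.0 FPKM in shControl cells, and did not pass (log2 change 0.18, limma adjusted p = 0.0566).

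S phase genes moved beside the histone genes: of 27 tested, 21 fell and 0 rose, against 8.54% and 8.35% of all tested genes. All 27 had a negative log2 change, and the median was -0.49. Both shLOXL2 libraries lay below both shControl libraries in 26 and above in 0, against 32.8% and 31.8% of all tested genes. Without the genes also held by the lists above, 18 of 23 fell at a median of -0.51. The 5 with the smallest p were MCM3 (-0.63), MCM6 (-0.85) and MCM4 (-0.49) of the replicative helicase, the uracil glycosylase UNG (-0.83) and the thymidylate synthase TYMS (-0.73). PCNA, the sliding clamp of DNA polymerases, fell to 92.6 and 98.9 FPKM in shLOXL2 cells, against 151 and 154 FPKM in shControl cells (log2 change -0.67, limma adjusted p = 0.0140). The part of a lower S phase share in the histone values was not tested. With any 1 library left out, 0 genes of these 3 lists passed, with 22 to 24 of the 27 S phase genes at an unadjusted p below 0.05 in limma, against the shares of all tested genes given above for the same fits.

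**Figure D5:**
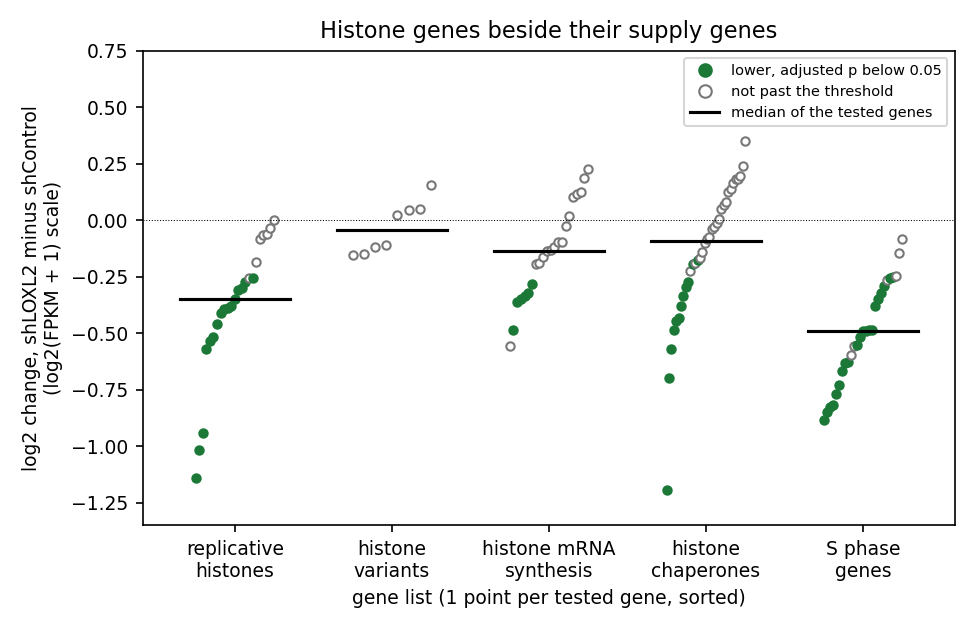
Log2 change (shLOXL2 minus shControl, log2(FPKM + 1) scale) of every tested gene in 5 lists, sorted within each, with the median as a bar; filled symbols passed the threshold. Medians are -0.35 for replicative histones, -0.043 for variants, -0.13 for histone mRNA synthesis and processing, -0.092 for chaperones and -0.49 for S phase genes.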

How the data were processed

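The authors deposited 1 table of FPKM per gene (Ensembl identifiers, 1 column per RNA library). The submitters' processing notes list GRCh37 as build and Bowtie and Cufflinks as tools, while annotation, strand setting and RNA selection were not given in the sources used here. Symbols came from a table of Ensembl names (52169 of 63657 identifiers matched), gene types and older HIST symbols from RefSeq, and promoters from RefSeq (GRCh38.p14). The peak lists, and the authors' own means and fold changes, were not used here, and protein identity between members, planned, was not computed.

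Genes whose mean over the 4 libraries reached 1 FPKM (16987) were fitted together as log2(FPKM + 1) in limma, with a variance prior that follows intensity and a two-sided test of shLOXL2 against shControl, with Benjamini-Hochberg adjustment over all of them and a threshold of 0.05. Errors of log2 changes are limma's SE, and a log2 change on this scale understates that of low genes. The fit was tested on simulated data. The histone genes, lists and tests were chosen with earlier results of these data known. All tested members are named except 1 that is not reported here, and of the other lists up to 5 called genes with the smallest p in each direction plus SLBP, NPAT, CHAF1A, ASF1B and NASP. PCNA, COL1A1, the breast line markers, DPAGT1, SLC17A1 and the genes of the closing section were named after their values were seen. Alternatives covered pseudocounts of 0.1 and 5 FPKM, filters, scaling, the variance prior, protein-coding genes alone, a replicate block and each library left out. Fits ran in limma 3.58.1 under R 4.3.3, and tables and figures were made with pandas 2.3.3 and matplotlib 3.10.9 (Python 3.11.15).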

Additional observations from a re-analysis of the deposited data

How the results depend on the processing

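The direction of all 16 falls was kept under every alternative, but their calls were not. Their groups did not overlap, so a pseudocount or leaving out 1 library could not turn a sign. The filters, variance priors, protein-coding genes alone and the replicate block leave the log2 change as it is. Only quantile normalization and upper quartile scaling could have turned it. Of all genes, 2869 passed, against 1143 with no filter on low values, 4314 with protein-coding genes alone and 193 to 294 with 1 library left out. The main fit and those with 1 library left out tested 16987 genes, that with no filter 36224 and that with protein-coding genes alone 11216. Of the 31 tested histone genes 16 passed, all replicative, against 8 of 45, all replicative, with no filter. Without the intensity trend 11 of the 31 passed, against 1948 of all 16987 genes. With 1 library left out, 0 of the histone genes and 0 of the replicative genes passed in limma (18 to 20 of the 31 at an unadjusted p below 0.05). Of the 8 tested variant genes 2 passed with quantile normalization, where 8.72% of all genes fell and 8.41% rose. With protein-coding genes alone 3 of the 8 passed, near the share of all genes, of which 19.4% fell and 19% rose. The median log2 change of the replicative genes was -0.25 with no filter and -0.41 with quantile normalization. That of the variants was -0.0013 with no filter, -0.11 at a filter of 5 FPKM, which removes H3-3A, -0.091 with quantile normalization and -0.066 to -0.047 with 1 library left out. Signs turned with quantile normalization for H2AC20 (-0.069) and H2AZ2 (-0.030). With 1 library left out, log2 changes ran from -0.027 to 0.032 for H2AC20, -0.14 to 0.063 for H4C11, -0.0089 to 0.058 for H2AZ2, -0.00047 to 0.10 for H3-3A, -0.11 to 0.062 for NPAT and -0.26 to 0.10 for CHAF1A. LOXL2 lost its call without shControl replicate 1 (limma adjusted p = 0.157) or 2 (0.154). The cause was not tested.

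With the replicate number as a block, 0 of all genes, 0 of the histone genes and 0 of the replicative genes passed limma's threshold, with 5519 of all genes and 23 of the 31 histone genes at an unadjusted p below 0.05. Same-numbered libraries did not deviate together over all 16987 genes (Pearson r of the differences between replicates = -0.0013), but over the 31 histone genes they did (r = 0.60 across genes, which are not independent), with replicate 1 below replicate 2 in both groups by medians of -0.051 (shLOXL2) and -0.041 (shControl) on the log2 scale. With 2 pairs, and no label that ties the numbers to a shared day or batch, the pairing could not be settled. Counts for the gene lists under the alternatives were added after seeing the data. With no filter, 0 of 23 genes of histone mRNA synthesis and processing passed, 4 of 34 chaperone genes and 14 of 27 S phase genes. Of all genes in that fit 1143 of 36224 passed. Without the intensity trend 2 of 22, 6 of 34 and 18 of 27 passed, against 1948 of 16987 genes. With protein-coding genes alone 10 of 22, 20 of 34 and 26 of 27 passed, against 4314 of 11216 genes. Depth is unknown, so precision rests on 2 libraries per group.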

Other observations

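Histone genes outside the naming rule were measured too. H2AJ, an H2A gene outside the large clusters, had 21.6 and 25.3 FPKM in shLOXL2 cells, against 27.9 and 27.6 FPKM in shControl cells, without passing (log2 change -0.24, limma adjusted p = 0.159). H3-5, an intronless gene copied from an H3.3 gene, had 29.7 and 32.0 FPKM in shLOXL2 cells, against 33.5 and 34.7 FPKM in shControl cells (log2 change -0.14, limma adjusted p = 0.174), so it was listed above its relative H3-3A. The H2A.Z pseudogene H2AZP3 was listed at 203 and 217 FPKM in shLOXL2 cells, against 238 and 229 FPKM in shControl cells. H2AZ2P1, a pseudogene of H2AZ2, was at 54.1 and 54.2 FPKM in shLOXL2 cells, against 50.8 and 49.9 FPKM in shControl cells, above in both libraries. Reads of the parent genes may be counted in such copies, which was not tested.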
